A study of Mus musculus with 12 samples.

Results

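Interferon-stimulated genes are genes whose transcription rises when a cell is exposed to an interferon, and 42 of them, fixed by name, were followed here in mouse liver cells during regeneration. Each of the 42 names matched 1 line of the count table, out of 18227 genes listed, and every one had enough counts to be tested among 15647 genes. They comprise 3 transcription factors, 4 nucleic acid sensors, 8 genes of ISG15, ubiquitin or ADP-ribose conjugation, 9 IFIT, OAS and MX effectors, 11 other antiviral effectors and 7 interferon-inducible GTPases. The 9 IFIT, OAS and MX genes stand for type I interferon targets, and 6 GTPases (Gbp2, Gbp3, Gbp7, Irgm1, Irgm2 and Igtp) stand for interferon gamma targets.

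RNA was sequenced after poly A selection from hepatocyte preparations of wild-type BALB/C males, 8 weeks old, on day 1 or day 2 after removal of 70% of the liver (post-operative day, POD1 and POD2). All mice had received antibody into the peritoneum as 2 doses of 200 µg in 100 µl of PBS, given 2 days apart with the later dose at surgery: an anti-Gr1 antibody, intended to deplete granulocytic myeloid-derived suppressor cells, or its isotype control. The 4 groups were isotype POD1, isotype POD2, anti-Gr1 POD1 and anti-Gr1 POD2, with 3 libraries each, and every group shares the hepatectomy and an antibody injection, so none is an unoperated or uninjected liver. Cells were obtained by collagenase perfusion, a 70 µm filter and low-speed centrifugation, which enriches hepatocytes without sorting them. Whether replicate libraries are different animals is not stated in the labels, and the p-values therefore reflect a spread among libraries that may be technical.

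Libraries held 13189392 to 15822043 counts. Replicates 1 and 2 of isotype POD2 were nearly identical (chi-square per gene 1.68), as were replicates 1 and 2 of anti-Gr1 POD2 (5.70), and each pair was counted as 1 sample, which leaves n = 2 in both POD2 groups. They differed far less than the other 10 pairs within a group, at 63.9 or more. The third replicates of both anti-Gr1 groups, POD1 and POD2, were nearly identical as well (3.73) although their labels give different days, so results are also given without these 2 libraries where that matters. Ly6g, a neutrophil surface protein that the anti-Gr1 antibody binds, spanned 0.239 to 2.03 CPM (counts scaled by library size) with isotype and 24.5 to 57.7 CPM with the anti-Gr1 label, so the transcript of the antibody's target was higher where the label says depletion. Hepatocyte markers made up 0.305% to 9.36% of a library's counts, and a set of pancreatic acinar genes made up 0.0099% to 20.3%, so the libraries hold RNA of other cells in varying amounts.

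As background, type I interferons signal through JAK1 and TYK2 to a complex with STAT2 and IRF9 that binds the interferon-stimulated response element (ISRE), whereas interferon gamma acts mainly through the gamma-activated sequence (GAS). Type I signalling is known for antiviral effectors such as the IFIT, OAS and MX families. Interferon gamma is known for the GBP and IRG GTPases, which act on vacuoles that hold pathogens, although many genes answer to both. In the liver, Kupffer cells, endothelium, infiltrating leukocytes and hepatocytes can all respond to interferon.

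The promoters of the members were searched for both elements. RefSeq promoter windows of GRCm38.p6, from 250 bases before the start of a gene to 50 bases after it, were found for 33 of the 42 members. The core of an ISRE, the letters GAAA, any 2 bases and GAAA again, was searched on both strands and occurred in 18 of these 33 genes (54.5%), against 3.99% of 27025 RefSeq genes with a window. The letters TTCNNNGAA, the core of a GAS, occurred on either strand in 9 of 33 (27.3%), against 9.55% of all genes, and both motifs in 6 of 33 (18.2%), against 0.614%. The ISRE core was present in 4 of 7 type I targets with a window and in 6 of 6 gamma targets. The GAS core was present in 2 of 7 and 3 of 6. Upstream sequences are shown for 3 type I targets, for Isg15 and for 4 gamma targets that hold a motif outside annotated exons, 5′ to 3′ on the strand of the gene, with both motifs in capitals; a match is a description of letters and not a binding site.
Ifit1, chr19:34640744-34640870, plus strand: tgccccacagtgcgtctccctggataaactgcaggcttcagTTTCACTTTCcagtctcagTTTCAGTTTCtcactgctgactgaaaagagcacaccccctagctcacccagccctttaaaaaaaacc
Ifit3, chr19:34583369-34583528, plus strand: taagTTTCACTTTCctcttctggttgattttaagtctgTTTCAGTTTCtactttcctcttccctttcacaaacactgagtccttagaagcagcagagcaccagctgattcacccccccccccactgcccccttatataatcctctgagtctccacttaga
Oas3, chr5:120777662-120777795, minus strand: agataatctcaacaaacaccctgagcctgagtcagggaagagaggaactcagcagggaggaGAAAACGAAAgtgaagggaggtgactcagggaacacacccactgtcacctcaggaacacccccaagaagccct
Isg15, chr4:156200819-156200978, minus strand: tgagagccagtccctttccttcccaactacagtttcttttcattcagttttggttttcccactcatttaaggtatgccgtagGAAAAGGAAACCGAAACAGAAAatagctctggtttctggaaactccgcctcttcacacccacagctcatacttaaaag
Gbp3, chr3:142559884-142560025, plus strand: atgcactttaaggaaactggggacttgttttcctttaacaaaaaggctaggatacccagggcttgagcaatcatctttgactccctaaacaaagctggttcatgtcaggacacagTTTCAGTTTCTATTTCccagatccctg
Gbp7, chr3:142530176-142530335, plus strand: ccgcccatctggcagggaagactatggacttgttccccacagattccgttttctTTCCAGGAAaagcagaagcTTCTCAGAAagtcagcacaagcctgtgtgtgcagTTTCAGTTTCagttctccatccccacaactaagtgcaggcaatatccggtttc
Igtp, chr11:58199396-58199555, plus strand: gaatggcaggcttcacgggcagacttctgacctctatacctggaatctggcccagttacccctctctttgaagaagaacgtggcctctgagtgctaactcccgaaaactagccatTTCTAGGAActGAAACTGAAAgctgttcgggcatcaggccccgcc
Irgm2, chr11:58214817-58214976, plus strand: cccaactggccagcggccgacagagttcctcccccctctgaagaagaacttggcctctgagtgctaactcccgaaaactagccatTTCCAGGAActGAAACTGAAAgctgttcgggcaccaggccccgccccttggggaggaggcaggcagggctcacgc

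Igtp and Irgm2, neighbours on chromosome 11, share 1 arrangement, a GAS core that ends just before an ISRE core. The GAS core began 45 bases before the start of Igtp and 75 bases before that of Irgm2. In Isg15 the capitals hold 3 overlapping ISRE cores, and in Ifit1 and Ifit3 they hold 2 separate ones, which read as TTTC, any 2 bases and TTTC on the strand shown. The response of members was also set out by motif, as a description. The 18 genes with the ISRE core had a median log2 fold change between antibodies of 1.10 at POD2 and 9 of them passed the test described below, and the 15 without it had a median of 1.56 and 10 passed. The 9 genes with the GAS core had a median of 0.75 and 2 passed, and the 24 without it had a median of 1.57 and 17 passed. Over all genes tested the median was 0.10 and 16.1% passed higher, so 2 of 9 was near that share.

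**Figure D1:**
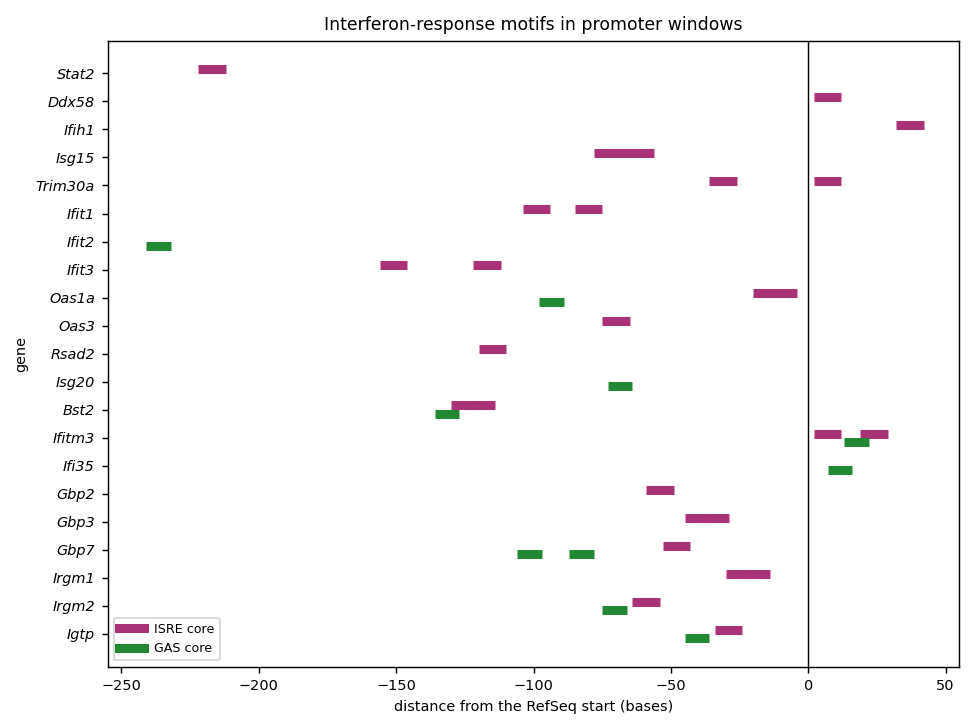
Positions of the ISRE core and the GAS core relative to the RefSeq start, in bases, for the members that hold at least 1 of them. Bars mark each match on either strand; all 6 gamma targets hold an ISRE core in the 64 bases before the start, and in Igtp and Irgm2 the cores of both kinds lie side by side.

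At POD1, 40 of the 42 genes had a positive log2 fold change in the anti-Gr1-labelled libraries against isotype, where 50.6% of all genes did, but none passed the adjusted threshold of 0.05 in edgeR's quasi-likelihood test. The background was 0.607% of 15647 genes passing higher and 0.128% passing lower. The median log2 fold change of the members was 0.79, against 0.01 over all genes, with a range from -1.01 for Isg20 to 2.17 for Oas3. At an unadjusted p under 0.05, 30 members were higher, against 8.98% of all genes. DESeq2 called 21 of the 42 higher, among 524 of 15647 genes, and edgeR on all 12 libraries called 15, among 344 of 15294. Without the near-identical libraries of different days edgeR called 9, among 313 of 16267. In 26 of 42 genes every library labelled anti-Gr1 POD1 lay above every isotype POD1 library, against 10.1% of all genes.

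At POD2, 26 of the 42 passed higher and 0 passed lower, against a background of 16.1% of all genes higher and 9.22% lower. All 42 had a positive value, as did 54.3% of all genes, with a median of 1.42 against 0.10 over all genes, from 0.00 for Ifi35 to 3.30 for Oas3. The groups did not overlap in 39 of 42 genes, against 35.4% of all genes; the exceptions were Stat2, Bst2 and Ifi35. Leaving out isotype POD2 replicate 3, the library lowest for 32 of the 42 genes, gave 15 passing, among 470 of 16353 genes. Leaving out anti-Gr1 POD2 replicate 3 gave 17, among 787 of 16355, so calls over all genes fell from 2518 as well. Both left 1 sample in an arm, assumed to vary like the others.

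**Figure D2:**
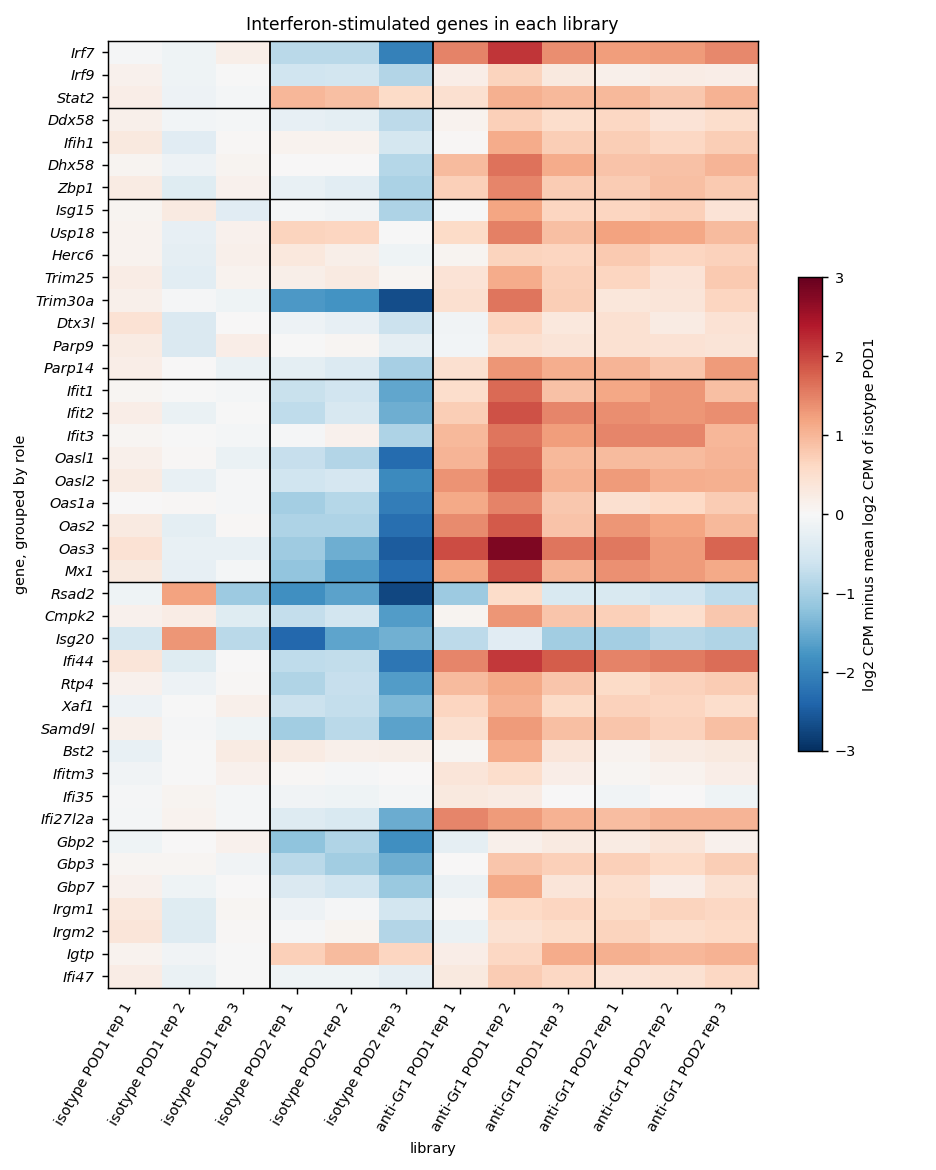
Log2 CPM of each of the 42 genes in each of the 12 libraries, minus the gene's mean log2 CPM in isotype POD1, with genes grouped by role between horizontal lines and groups of libraries between vertical lines. Isotype POD2 replicate 3 is the lowest library for 32 genes, and anti-Gr1 POD1 replicate 2 is the highest library for 33 of the 42.

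Irf7, the transcription factor that amplifies type I interferon production, was among the most different genes on both days. It measured 139, 129 and 159 CPM in isotype POD1, 80.9, 81.2 and 34.7 CPM in isotype POD2, 396, 627 and 373 CPM in anti-Gr1-labelled POD1 libraries and 336, 344 and 383 CPM in those labelled anti-Gr1 POD2. Every library labelled anti-Gr1 lay above every isotype library, on either day. The fold was 3.27 at POD1 (log2 fold change 1.71 ± 0.33 SE, adjusted p = 0.0638) and 6.24 at POD2 (2.64 ± 0.42, adjusted p = 0.00469). Irf9, the DNA-binding subunit of the type I complex, was higher with the anti-Gr1 label at POD2 (0.91 ± 0.20, adjusted p = 0.0132). It had 0.40 ± 0.16 at POD1. GENCODE places Irf7 against Phrf1 on the opposite strand and Irf9 in overlap with Rnf31, and whether counting used strand was not given in the sources used here.

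Stat2, a subunit of that complex, had another pattern. Its levels were 57.6, 45.0 and 47.8 CPM in isotype POD1, 99.3, 93.6 and 73.9 CPM in isotype POD2, 69.3, 104 and 98.1 CPM in anti-Gr1-labelled POD1 libraries and 97.8, 88.0 and 102 CPM in those labelled anti-Gr1 POD2. The isotype POD1 libraries were the lowest and the other groups overlapped. The log2 fold change between antibodies was 0.85 ± 0.19 at POD1 (adjusted p = 0.0903) and 0.19 ± 0.24 at POD2 (adjusted p = 0.576), and the latter changed sign when all 12 libraries were kept separate.

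Among the sensors of foreign nucleic acid, 3 of 4 passed higher with the anti-Gr1 label at POD2, against 16.1% of all genes. They were Ddx58, which encodes RIG-I (1.02 ± 0.24, adjusted p = 0.0167), and Dhx58, its regulator LGP2 (1.28 ± 0.31, adjusted p = 0.0182). Zbp1, a sensor of Z-form nucleic acid, passed as well (1.37 ± 0.33, adjusted p = 0.0191). Ifih1, which encodes MDA5, had 0.89 ± 0.36 (adjusted p = 0.102). Dhx58 was also 1 of the 5 members with the smallest p at POD1. It measured 22.3, 18.8 and 22.2 CPM in isotype POD1 and 40.9, 65.1 and 45.7 CPM in anti-Gr1-labelled POD1 libraries, so the groups were well apart (1.26 ± 0.25, adjusted p = 0.0638). At POD2 it measured 21.1, 21.3 and 11.6 CPM with isotype and 37.8, 38.5 and 42.3 CPM with the anti-Gr1 label, a gap of similar log2 size (1.28).

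Of the 8 genes of ISG15, ubiquitin or ADP-ribose conjugation, 2 passed higher with the anti-Gr1 label at POD2, not far above the 16.1% of all genes. They were Trim30a, a TRIM family protein (2.63 ± 0.42, adjusted p = 0.00462), and Parp14, an ADP-ribosyltransferase (1.75 ± 0.32, adjusted p = 0.00708). The other 6 had values of 0.51 to 1.00, all positive. Isg15, the ubiquitin-like modifier, measured 20.8, 23.8 and 15.5 CPM in isotype POD1, 18.8, 18.2 and 10.3 CPM in isotype POD2, 19.5, 44.6 and 30.9 CPM in anti-Gr1-labelled POD1 libraries and 30.8, 32.6 and 26.4 CPM in those labelled anti-Gr1 POD2. The antibody groups overlapped at POD1 and lay apart at POD2, with log2 fold changes of 0.66 ± 0.33 (adjusted p = 0.355) and 1.00 ± 0.41 (adjusted p = 0.104). Usp18, the protease that removes ISG15 and restrains the type I receptor, measured 12.1, 9.46 and 12.3 CPM in isotype POD1, 17.8, 17.6 and 11.1 CPM in isotype POD2, 16.8, 31.8 and 21.0 CPM in anti-Gr1-labelled POD1 libraries and 25.8, 25.2 and 21.8 CPM in those labelled anti-Gr1 POD2. It did not pass on either day (1.04 ± 0.27, adjusted p = 0.123 at POD1; 0.70 ± 0.33, adjusted p = 0.147 at POD2), although the groups did not overlap.

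All 9 type I targets passed higher with the anti-Gr1 label at POD2, against 16.1% of all genes. Their median log2 fold change was 2.31, with a range of 1.58 for Ifit3 to 3.30 for Oas3. At POD1 all 9 had positive values with groups that did not overlap and an unadjusted p under 0.05. Of all genes, 50.6% had positive values, 10.1% lay higher without overlap and 8.98% were higher at that unadjusted p. The 9 had a median of 1.41 and a range of 1.12 to 2.17 at POD1, and none passed the adjustment. Without isotype POD2 replicate 3, which leaves 1 sample in that group, the median of the 9 at POD2 was 1.76.

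Oas3, an oligoadenylate synthetase that activates RNase L, had the largest difference on both days. It measured 26.6, 16.8 and 16.8 CPM in isotype POD1 and 76.1, 137 and 59.5 CPM in anti-Gr1-labelled POD1 libraries, then 9.31, 7.15 and 3.46 CPM in isotype POD2 and 59.0, 47.6 and 65.8 CPM in those labelled anti-Gr1 POD2. The isotype POD2 libraries were the lowest and the anti-Gr1-labelled POD1 libraries the highest or among them. The fold was 4.51 at POD1 (adjusted p = 0.0551) and 9.87 at POD2 (adjusted p = 0.0046).

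Mx1, a dynamin-like antiviral GTPase, had the smallest p of the members at POD2. Its levels were low, at 5.06, 3.50 and 3.99 CPM in isotype POD1, 1.83, 1.28 and 0.835 CPM in isotype POD2, 9.46, 15.5 and 8.42 CPM in anti-Gr1-labelled POD1 libraries and 10.7, 10 and 9.10 CPM in those labelled anti-Gr1 POD2. Every library labelled anti-Gr1 lay above every isotype library, with folds of 2.66 at POD1 (adjusted p = 0.0788) and 7.74 at POD2 (adjusted p = 0.00311). Oasl2, an OAS-like protein, showed the same order, with 38.7, 28.2 and 31.9 CPM in isotype POD1, 21.7, 22.9 and 8.71 CPM in isotype POD2, 83.6, 115 and 67.5 CPM in anti-Gr1-labelled POD1 libraries and 78.6, 69.1 and 68.8 CPM in those labelled anti-Gr1 POD2. Its log2 fold change was 1.43 ± 0.33 at POD1 (adjusted p = 0.0951) and 2.18 ± 0.42 at POD2 (adjusted p = 0.00835).

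Ifit1 and Ifit3, both of the IFIT family, had close isotype values at POD1. Ifit1 measured 10.9, 10.4 and 10.1 CPM in isotype POD1, 6.62, 7.07 and 3.58 CPM in isotype POD2, 15.2, 33.8 and 19.1 CPM in anti-Gr1-labelled POD1 libraries and 23.4, 26.1 and 19.6 CPM in those labelled anti-Gr1 POD2. Ifit3 measured 8.34, 7.92 and 7.74 CPM in isotype POD1, 7.75, 8.77 and 4.18 CPM in isotype POD2, 15.7, 24.5 and 19.1 CPM in anti-Gr1-labelled POD1 libraries and 21.9, 22.1 and 16 CPM in those labelled anti-Gr1 POD2. No isotype library reached the lowest library labelled anti-Gr1 for either gene, and the folds at POD2 were 4.17 for Ifit1 (adjusted p = 0.00963) and 3.00 for Ifit3 (adjusted p = 0.0115). Both calls were lost without isotype POD2 replicate 3, at an adjusted p of 0.0792 for Ifit1. That of Ifit3 was lost there and without the summed replicates 1 and 2 of anti-Gr1 POD2, at adjusted p-values of 0.0684 and 0.074.

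**Figure D3:**
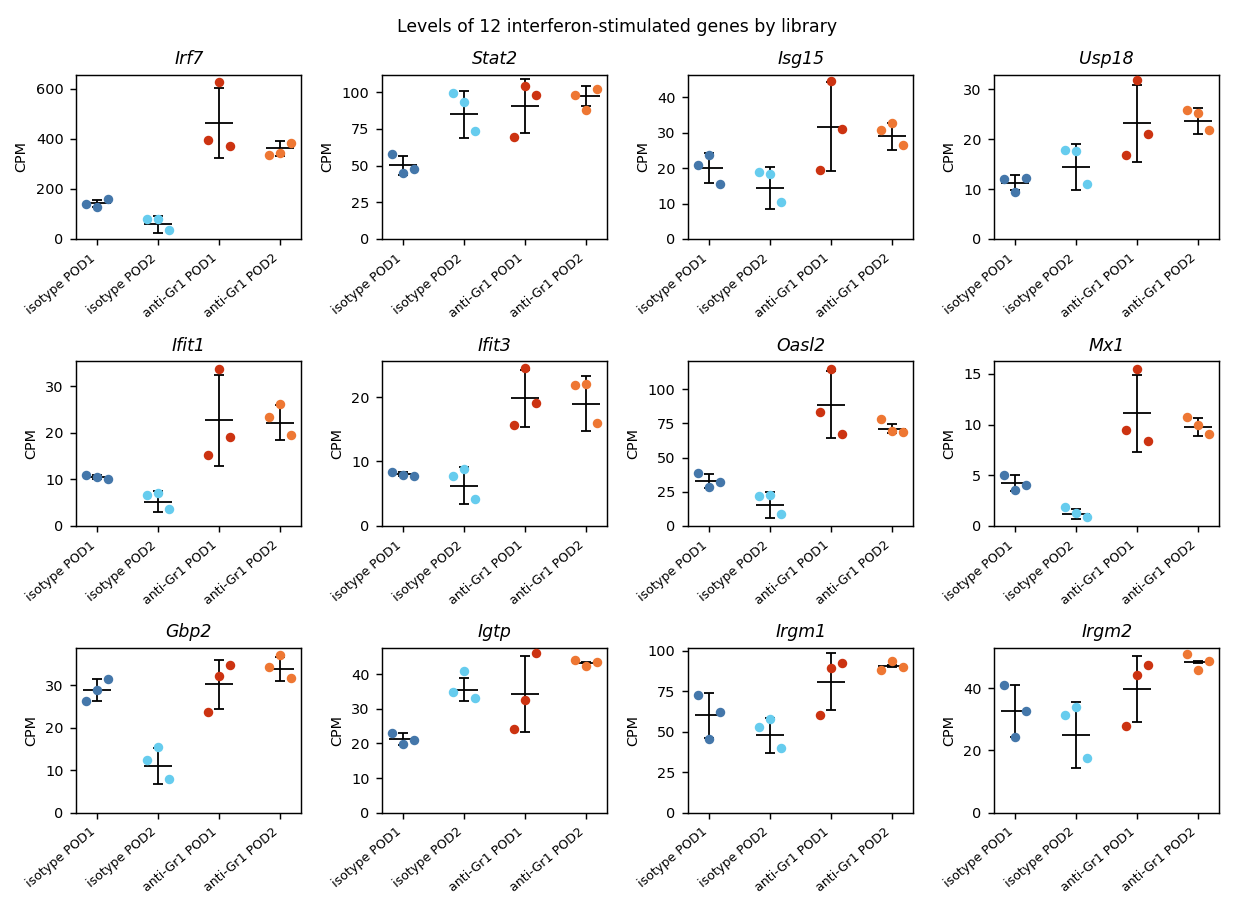
Level in CPM of 12 members in each library, from 0, with the mean and SD over the samples of the fit (n = 3 for POD1 groups and n = 2 for POD2 groups, where near-identical libraries count once). The type I genes and Irf7 show libraries labelled anti-Gr1 above isotype on both days, whereas Gbp2 shows it at POD2 with overlapping groups at POD1.

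Of the other 11 antiviral effectors, 6 passed higher with the anti-Gr1 label at POD2, against 16.1% of all genes. They were Ifi44, Rtp4, Samd9l, Xaf1, Ifi27l2a and Cmpk2. Ifi44, an interferon-induced GTP-binding protein, measured 39.8, 24.3 and 31.3 CPM in isotype POD1, 18.5, 18.6 and 6.92 CPM in isotype POD2, 85.7, 135 and 109 CPM in anti-Gr1-labelled POD1 libraries and 88.1, 92.5 and 99.0 CPM in those labelled anti-Gr1 POD2. The antibodies lay far apart on both days, at 3.46-fold (adjusted p = 0.0638) and 7.34-fold (adjusted p = 0.00427). Ifi27l2a, a member of the interferon alpha-inducible Ifi27 family, measured 52.5, 59.0 and 52.6 CPM in isotype POD1, 41.5, 39.7 and 19.5 CPM in isotype POD2, 150, 132 and 112 CPM in anti-Gr1-labelled POD1 libraries and 104, 110 and 111 CPM in those labelled anti-Gr1 POD2. Its folds were 2.40 at POD1 (adjusted p = 0.0638) and 3.61 at POD2 (adjusted p = 0.00529), with no overlap.

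Rtp4, a receptor transporter protein with antiviral activity, measured 55.5, 45.5 and 51.9 CPM in isotype POD1, 27.1, 31.3 and 16 CPM in isotype POD2, 98.7, 112 and 90.9 CPM in anti-Gr1-labelled POD1 libraries and 75.8, 82.0 and 86.6 CPM in those labelled anti-Gr1 POD2, with a fold of 3.64 at POD2 (adjusted p = 0.00346). It overlaps Masp1 on the opposite strand, a hepatocyte gene. Samd9l, an antiviral restriction factor, measured 38.7, 34.0 and 31.6 CPM in isotype POD1, 16.9, 19.9 and 11.3 CPM in isotype POD2, 48.4, 83.6 and 64.5 CPM in anti-Gr1-labelled POD1 libraries and 61.3, 56.1 and 64.7 CPM in those labelled anti-Gr1 POD2, a fold of 4.11 at POD2 (adjusted p = 0.00367). For both genes every library labelled anti-Gr1 stood above the isotype libraries of its day.

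Ifitm3, Bst2 and Ifi35 did not pass on either day, with log2 fold changes at POD2 of 0.14 ± 0.25, 0.05 ± 0.33 and 0.00 ± 0.15. Per kilobase of exon Ifitm3, which blocks viral entry, and Bst2, which tethers virions, had the highest levels of all members, at 986 and 177 CPM per kilobase as means of the 4 groups. Rsad2, which encodes viperin, and Isg20, an exonuclease, were the 2 members with negative values at POD1 (-0.47 ± 0.61 and -1.01 ± 0.52), and 1 library carried them: Rsad2 measured 32.0, 80.3 and 16.3 CPM and Isg20 14.8, 53.1 and 12.2 CPM in isotype POD1.

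The gamma targets had smaller median log2 fold changes than the type I targets. Single genes overlapped at POD2, where Gbp3 (1.84) and Gbp2 (1.61) lay above Ifit3 (1.58). At POD2, 3 of 6 passed higher with the anti-Gr1 label (Gbp2, Gbp3 and Irgm1), against 16.1% of all genes. The median log2 fold change was 1.06. At POD1 the median was 0.48, none passed, and 2 of 6 were higher at an unadjusted p under 0.05, against 8.98% of all genes. The type I median was above the gamma median in both comparisons under each of 18 alternative settings, at 1.10 to 1.54 against 0.25 to 0.68 for POD1 and 1.76 to 3.03 against 0.81 to 1.5 for POD2; the difference between the lists was not tested. GBP, IRG and OAS genes have close paralogs, among which reads could be split or discarded, and Igtp and Irgm2 overlap on 1 strand.

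Gbp2, a guanylate-binding protein, differed between antibodies on 1 of the days. It measured 26.3, 29.0 and 31.5 CPM in isotype POD1 and 23.8, 32.1 and 34.7 CPM in anti-Gr1-labelled POD1 libraries, then 12.4, 15.4 and 8.00 CPM in isotype POD2 and 34.2, 37.2 and 31.8 CPM in those labelled anti-Gr1 POD2. The groups overlapped at POD1 and lay apart at POD2. The log2 fold change was 0.06 ± 0.22 at POD1 (adjusted p = 0.912) and 1.61 ± 0.28 at POD2 (adjusted p = 0.00586). Gbp3, a related gene on chromosome 3, measured 18, 18 and 16.3 CPM in isotype POD1, 10, 8.52 and 6.32 CPM in isotype POD2, 17.6, 30.8 and 28.6 CPM in anti-Gr1-labelled POD1 libraries and 28.5, 26.2 and 29.2 CPM in those labelled anti-Gr1 POD2. It had 1.84 ± 0.29 at POD2 (adjusted p = 0.00427) and 0.56 ± 0.22 at POD1 (adjusted p = 0.269).

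Irgm1, a regulatory IRG protein, measured 72.9, 45.5 and 61.9 CPM in isotype POD1, 53.1, 57.9 and 40.2 CPM in isotype POD2, 60.5, 89.5 and 92.3 CPM in anti-Gr1-labelled POD1 libraries and 88.1, 93.5 and 90.2 CPM in those labelled anti-Gr1 POD2. Its call at POD2 was marginal (0.92 ± 0.28, adjusted p = 0.045) and was lost under 10 of 18 alternatives. Irgm2 measured 41.1, 24.4 and 32.8 CPM in isotype POD1, 31.3, 33.8 and 17.5 CPM in isotype POD2, 27.7, 44.2 and 47.3 CPM in anti-Gr1-labelled POD1 libraries and 51.0, 45.9 and 48.6 CPM in those labelled anti-Gr1 POD2, and did not pass (0.94 ± 0.36, adjusted p = 0.0889 at POD2).

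Igtp, which encodes Irgm3, had the smallest value of the gamma targets at POD2. It measured 23.0, 19.8 and 21.0 CPM in isotype POD1, 34.8, 41.0 and 33.2 CPM in isotype POD2, 24.2, 32.5 and 46.2 CPM in anti-Gr1-labelled POD1 libraries and 44.2, 42.3 and 43.5 CPM in those labelled anti-Gr1 POD2. Isotype POD1 was lowest, as for Stat2, and the log2 fold change at POD2 was 0.29 ± 0.26 (adjusted p = 0.452). Gbp7, also a gamma target, had 1.17 ± 0.38 at POD2 (adjusted p = 0.0533). Ifi47, an IRG protein outside both lists, was higher with the anti-Gr1 label at POD2 (0.72 ± 0.20, adjusted p = 0.0308).

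**Figure D4:**
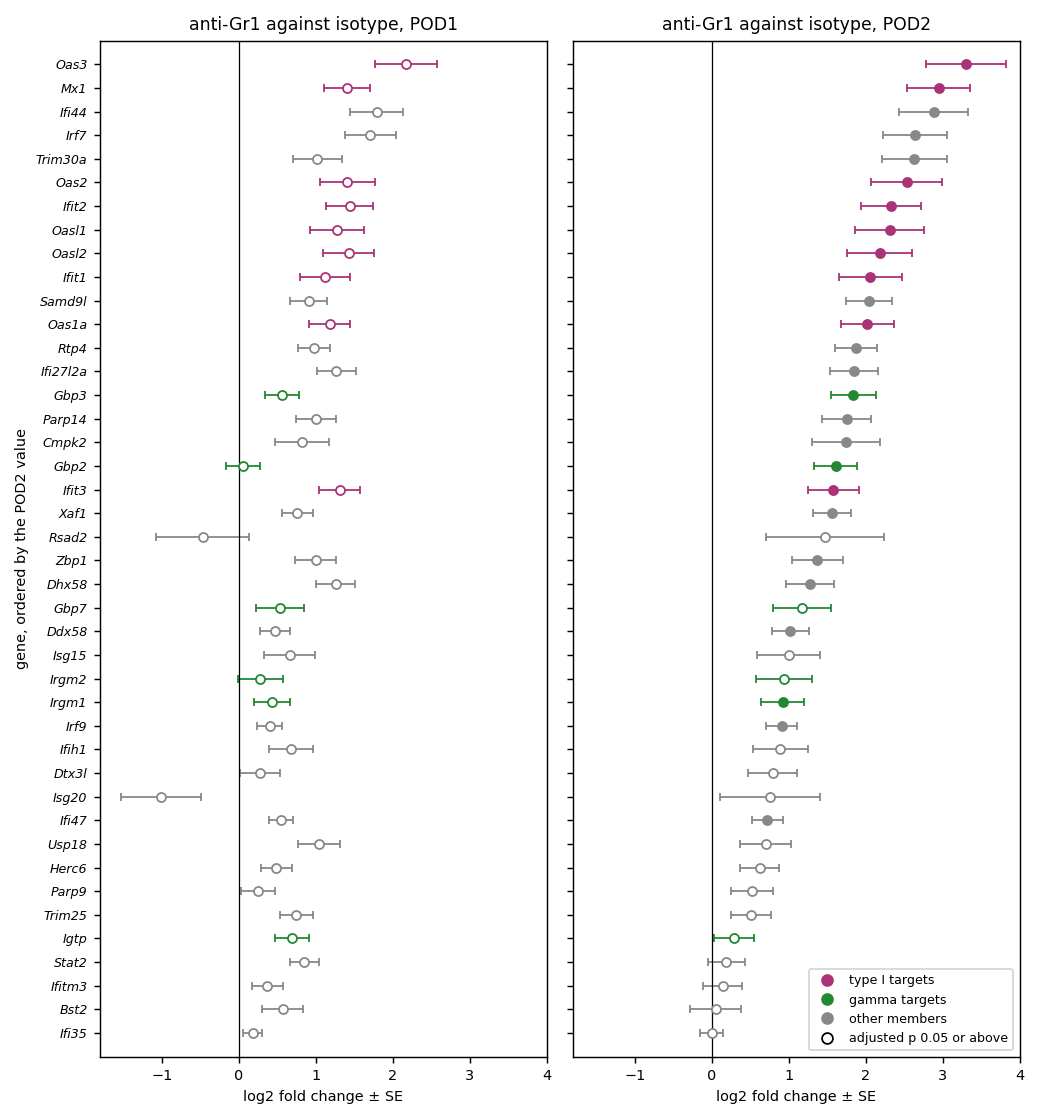
Log2 fold change ± SE of each member, libraries labelled anti-Gr1 against isotype, at POD1 and at POD2, ordered by the POD2 value; filled points passed the adjusted threshold of 0.05. Type I targets lie between 1.58 and 3.30 at POD2 and gamma targets between 0.29 and 1.84, and no member passed at POD1.

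Within a library, the ratio of the geometric mean level of the 9 type I targets to that of the 6 gamma targets sets the lists against each other on the CPM scale. It was 0.603, 0.595 and 0.544 in isotype POD1 and 0.423, 0.396 and 0.278 in isotype POD2. With the anti-Gr1 label it was 1.35, 1.37 and 0.811 at POD1 and 0.875, 0.884 and 0.826 at POD2. All libraries labelled anti-Gr1 lay above all isotype libraries. Of the anti-Gr1 POD1 libraries, replicate 3 lay with the POD2 libraries, to 1 of which it is nearly identical.

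The antibody difference was tested for a change between the days by an interaction term. Gbp2 alone of the 42 passed (difference of log2 fold changes 1.54 ± 0.35, adjusted p = 0.0417), against 3.51% of all genes passing in that direction and 2.10% in the other. The call was lost without the near-identical libraries of different days, without the 50 most abundant genes in the scaling, and in 7 of 10 fits that left out 1 sample: any isotype POD1 replicate, isotype POD2 replicate 3, anti-Gr1 POD1 replicate 1, or either anti-Gr1 POD2 sample. The difference was positive in 35 of 42 genes (54.3% of all genes), with a median of 0.65 against 0.09 over all genes. Mx1 had 1.54 ± 0.49 (adjusted p = 0.0966) and Oas3 1.13 ± 0.62 (adjusted p = 0.295), so a larger type I difference at POD2 than at POD1 was not established gene by gene.

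Between POD1 and POD2 in the isotype libraries, 17 of the 42 fell and 2 rose, against 19.7% of all genes falling and 12.6% rising. The genes that rose were Stat2 (0.76 ± 0.21, adjusted p = 0.026) and Igtp (0.74 ± 0.24, adjusted p = 0.0428). The median was -0.75, against -0.06 over all genes. Of the type I targets 5 of 9 fell, with a median of -1.33, among them Mx1 (-1.74 ± 0.38, adjusted p = 0.0101) and Oas3 (-1.74 ± 0.47, adjusted p = 0.0235). Of the gamma targets Gbp2 (-1.38 ± 0.26, adjusted p = 0.00562) and Gbp3 (-1.15 ± 0.26, adjusted p = 0.0127) fell. Groups did not overlap, lower at POD2, in 25 of 42 genes, against 34.3% of all genes. Without isotype POD2 replicate 3, 1 of the 42 fell, among 926 of 16353 genes against 3079 of 15647 with it. Without scaling factors 27 fell and 0 rose while the median of all genes moved to -0.73.

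With the anti-Gr1 label, 0 of the 42 passed between POD1 and POD2 in either direction, as did 0% of all genes in edgeR and in DESeq2. At an unadjusted p under 0.05 there were 0 members, against 2.41% of all genes higher and 2.51% lower. The median was -0.13 for all members, -0.30 for type I targets and 0.16 for gamma targets. Without the near-identical libraries of different days the count of members stayed at 0, while 530 genes rose and 15 fell.

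The other parts of the interferon system were followed in lists of known genes. Of 33 genes for ligands, receptors and signalling, 25 were in the table. The 8 absent were all interferons: Ifnb1, Ifna2, Ifna4, Ifna5, Ifnl2, Ifnl3, Ifnk and Ifne. At POD1, 19 of the 25 had positive values, against 50.6% of all genes, and 6 negative. The lowest was Ifng (-1.40), which did not pass. In the isotype libraries Ifng fell between the days (log2 fold change -4.37). At POD2, 15 of the 25 passed higher with the anti-Gr1 label and 1 lower, Irf3, against 16.1% and 9.22% of all genes. Ifnlr1, the interferon lambda receptor chain that pairs with Il10rb, was the 1 of 25 that also passed at POD1, against 0.607% of all genes. It measured 0.834, 0.701 and 0.491 CPM in isotype POD1, 0.87, 1.36 and 0.597 CPM in isotype POD2, 4.70, 4.26 and 3.55 CPM in anti-Gr1-labelled POD1 libraries and 3.89, 3.55 and 5.17 CPM in those labelled anti-Gr1 POD2. The groups were widely separated at these low levels (2.61 ± 0.33, adjusted p = 0.0158 at POD1; 2.29 ± 0.40, adjusted p = 0.00622 at POD2). At POD2, Il10rb (1.58 ± 0.24, adjusted p = 0.00391) and Irf8, a factor of myeloid and dendritic cells (2.19 ± 0.34, adjusted p = 0.00418), were higher with the anti-Gr1 label. So was Tlr7, a receptor for single-stranded RNA (2.75 ± 0.50, adjusted p = 0.00684).

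Of 50 other interferon-stimulated genes tested, 31 passed higher with the anti-Gr1 label at POD2 and 1 lower (Slfn9), against 16.1% and 9.22% of all genes. At POD1, 5 passed higher, against 0.607% of all genes: Ifitm1, Oas1g, Slfn1, Ifi44l and Phf11b. Ifitm1, an entry inhibitor, had 1.47 ± 0.19 at POD1 (adjusted p = 0.0155) and 2.61 ± 0.24 at POD2 (adjusted p = 0.00142). Slfn1, a schlafen protein, had 2.43 ± 0.41 (adjusted p = 0.0418) and 3.77 ± 0.54 (adjusted p = 0.00338). Of 23 other gamma targets tested, 11 passed higher with the anti-Gr1 label at POD2, against 16.1% of all genes. Among them were Gbp2b (1.92 ± 0.23, adjusted p = 0.00235) and Gbp8 (2.11 ± 0.27, adjusted p = 0.00275). Gbp4 (1.95 ± 0.32, adjusted p = 0.00499) and Gbp5 (1.99 ± 0.40, adjusted p = 0.00979) also passed. At POD1, the peptide transporter of antigen presentation, Tap1, was the 1 that passed higher (1.13 ± 0.15, adjusted p = 0.0168), against 0.607% of all genes. Gbp4 had a log2 fold change of -0.02 ± 0.25 at POD1, near 0 as for Gbp2.

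Markers of some other cell types moved with these genes. In bulk RNA, fewer cells of a type and less RNA per cell cannot be told apart. At POD2, 12 of 13 neutrophil, 8 of 10 monocyte, 9 of 10 Kupffer cell and 9 of 9 sinusoidal endothelial markers passed higher with the anti-Gr1 label. The share of all genes was 16.1%. Of the other lists, 4 of 10 T and NK cell, 0 of 8 B and plasma cell and 1 of 8 plasmacytoid dendritic cell markers passed higher. Of the acinar genes 0 of 11 passed, and all 11 had negative values. Kupffer cell markers summed to 1340 to 1930 CPM in isotype POD2 and 4690 to 6930 CPM in anti-Gr1 POD2, endothelial markers to 1280 to 1690 and 3400 to 5490 CPM, and monocyte markers to 327 to 498 and 1600 to 1950 CPM. Hepatocyte marker sums went the other way, from 111000 to 115000 CPM in isotype POD2 to 24600 to 28400 CPM, with 0 of 10 passing. Most of the isotype POD2 sum was Alb, at 75600 to 77100 CPM, against 12100 to 14600 CPM in anti-Gr1 POD2. Of the 10 markers 9 had negative log2 fold changes, and Tat had a positive one (0.54). Neutrophil markers summed to 2070 to 2840 CPM, mostly Lcn2, and to 8500 to 9260 CPM. In the isotype libraries between the days, 9 of 10 Kupffer cell, 9 of 9 endothelial and 9 of 10 monocyte markers fell, against 19.7% of all genes. Of 13 neutrophil markers 10 fell and 1 rose, Lcn2, which makes up most of their sum at POD2. Also falling were 5 of 10 T and NK cell, 5 of 8 B and plasma cell and 5 of 8 plasmacytoid dendritic cell markers. Of the acinar genes 0 of 11 passed. Of the hepatocyte markers 5 of 10 rose, against 12.6% of all genes. Their part in the members' differences was not tested.

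At POD1, where 0.607% of all genes passed higher and 0.128% lower, the marker lists differed from this. The sums overlapped for Kupffer cells, at 5980 to 9480 CPM in isotype and 7240 to 11100 CPM in anti-Gr1, and for endothelium, at 5780 to 6800 and 4530 to 6350 CPM, with 0 of 10 and 0 of 9 markers passing. Monocyte markers summed to 1790 to 2120 and 1990 to 3070 CPM with 2 of 10 passing, and neutrophil markers to 1540 to 1920 and 9660 to 12700 CPM with 9 of 13 passing. Hepatocyte markers summed to 8140 to 14200 and 2710 to 28800 CPM with 0 of 10 passing. Of 8 markers of plasmacytoid dendritic cells, which are known for their type I interferon output, 2 passed lower, 0 passed higher and 2 had positive values. Their log2 fold changes ran from -3.30 for Siglech, a defining marker, to 1.5 for Klk1. Klk1 varied along with the acinar gene Prss2, at 396, 1170 and 5.77 CPM in isotype POD1 beside 2400, 7360 and 7.61 CPM. In anti-Gr1-labelled POD1 libraries Klk1 measured 4030, 20.9 and 377 CPM, beside 19800, 118 and 2070 CPM for Prss2. The cell source of Klk1 was not tested. Siglech measured 4.90 to 9.09 CPM in isotype POD1 and 0.217 to 1.25 CPM in anti-Gr1-labelled POD1 libraries. T and NK cell markers summed to 29.8 to 78.2 and 26.7 to 43.4 CPM. B and plasma cell markers summed to 909 to 1380 and 104 to 383 CPM; all 8 had negative values, with a median log2 fold change of -2.06 and an unadjusted p under 0.05, and 0 passed the adjustment. The acinar genes reached 327000 CPM in isotype POD2 replicate 3, the library lowest for most members, which also had the lowest scaling factor, 0.622.

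**Figure D5:**
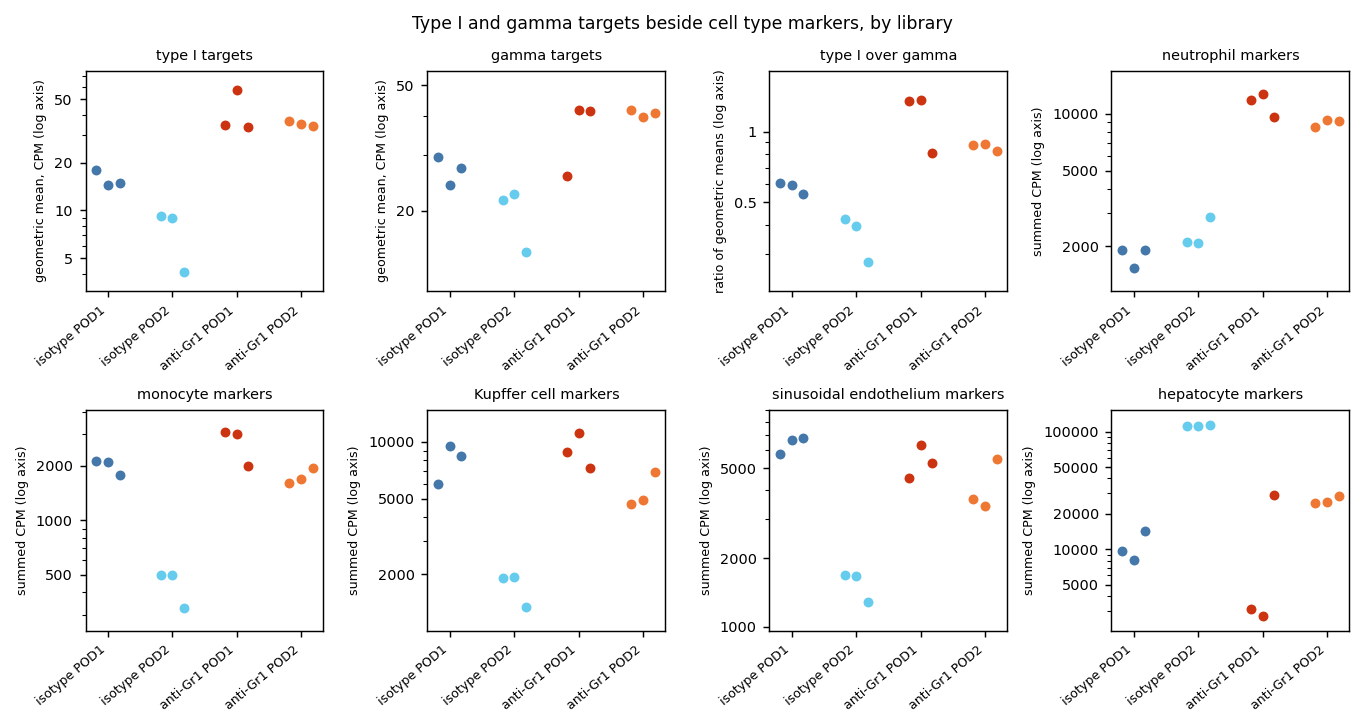
Geometric mean level of type I and gamma targets, their ratio, and summed CPM of 5 marker lists in each library, on log axes, by group. Type I targets and neutrophil markers are higher in all libraries labelled anti-Gr1 on both days, whereas Kupffer cell and endothelial sums differ between antibodies at POD2 and overlap at POD1.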

How the data were processed

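Raw read counts for each gene in 12 libraries are what the authors deposited. Cutadapt, STAR, HTSeq, DESeq2 and the build GRCm38 are named, per the submitters' processing notes; their versions and the use of strand were not given in the sources used here. Identifiers were looked up in GENCODE M21 (GRCm38), which held 18208 of the 18227 identifiers, and 15 symbols stood for a pair of identifiers. All 12 columns were matched to samples by title. The near-identical libraries were summed within their group, which gave 10 samples. The test was edgeR 4.0.16 under R 4.3.3 (filterByExpr, TMM scaling, robust quasi-likelihood fit of 4 group means, Benjamini-Hochberg adjustment over 15647 genes, threshold 0.05). CPM values use the TMM-scaled library sizes, and SE is that of the log2 fold change. The script was tested on simulated data. Alternatives were all 12 libraries, leaving out libraries, other scaling, no filter, only the groups compared, a replicate block and DESeq2 1.42.0. Named genes are 12 leading members, the 5 members with the smallest p per antibody comparison and up to 4 genes per further list; others were named after their values were seen, and 1 gene that the rule takes is not reported here. The members and lists were chosen with earlier results of these data known. Promoter windows are from RefSeq (GRCm38.p6).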

Additional observations from a re-analysis of the deposited data

Results flagged for a closer look

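The antibody difference of Gbp2 changed between the days by an interaction test: the log2 fold change was 0.06 at POD1 and 1.61 at POD2, a difference of 1.54 (adjusted p = 0.0417, edgeR). All 3 libraries labelled anti-Gr1 POD2 lay above the 3 isotype POD2 libraries, while the groups overlapped at POD1. With 1 of 42 members passing, the share lay under the 3.51% of all genes. The call was lost without the near-identical libraries of different days, without the 50 most abundant genes in the scaling and in 7 of 10 fits that left out 1 sample.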

How the results depend on the processing

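The count of members higher at POD1 (0) rose to 15 with all 12 libraries separate, 9 without the near-identical libraries of different days, 21 with DESeq2 and 8 with the replicate block, and ranged from 0 to 12 when 1 sample was left out. At POD2 (26) the settings other than leaving out a sample gave 18 to 32, and leaving out 1 sample gave 15 to 29. The interaction count (1 higher, 0 lower) became 3 higher and 1 lower with all 12 libraries, 0 without the near-identical libraries of different days, 0 without the 50 most abundant genes in the scaling and 2 with the block, and 0 to 5 when 1 sample was left out. In the isotype course, members higher (2) became 0 without scaling factors and 1 without a filter, and 0 to 2 with a sample left out; members lower (17) became 11 without the near-identical libraries of different days and 27 without scaling factors, and 1 to 18 with a sample left out. Without scaling factors the median of all genes at POD2 was 0.51 and 3188 genes were higher and 442 lower, against 2518 and 1442. Calls over all genes moved with other settings as well. At POD1, genes higher rose from 95 to 344 with all 12 libraries separate, 524 with DESeq2 and 206 with the block. The 32 members at POD2 came from the fit of only the groups compared, which called 2852 genes higher. Among single genes, Gbp2 at POD1 turned to -0.04 without the near-identical libraries of different days and -0.08 without scaling factors, and ranged from -0.05 to 0.21 when 1 sample was left out; Stat2 at POD2 turned to -0.01 with all 12 libraries separate, -0.002 without the near-identical libraries of different days and -0.0036 with the replicate block. The cause was not tested. The replicate numbers did not pair the samples: correlations of same-numbered deviations were -0.248 to 0.344. Only replicate 3 in the anti-Gr1 course, the near-identical pair of different days, matched its own number best. The block fit called 29 members higher at POD2, among 2994 of 15294 genes. Leaving out a POD2 sample leaves 1 sample in that group. Mx1, at under 2 CPM in isotype POD2, rests on few counts.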
